A study of Homo sapiens with 30 samples.

Results

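IMR32 cells transfected with ASO1, an antisense oligonucleotide (ASO) whose target is NESPR, a long non-coding RNA, were compared with IMR32 cells transfected with NCA, a negative control ASO. The libraries were chosen by their titles: 4 libraries of IMR32 with ASO1 and 4 of IMR32 with NCA, 8 of the 30 in the series. Per the labels' protocols both groups received 100 nM ASO with lipofectamine 2000, so transfection and an oligonucleotide are shared by the controls, and no untransfected group was compared here. IMR32 is 1 established neuroblastoma cell line, and a further 4 IMR32 libraries with ASO2, a second oligonucleotide directed at NESPR, were used only where ASO1 was set directly against ASO2. The time between transfection and harvest is not given in the sources used here, nor is which of the 2 library kits named in the labels was used for these libraries. The labels number the libraries as replicates without saying that they came from separate cultures, so p-values measure the spread between these libraries, which may be technical.

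Neuroblastoma arises from the sympathetic nervous lineage, and IMR32 carries amplified MYCN. Its adrenergic state is held by transcription factors such as HAND2 and GATA3, which drive catecholamine enzymes, granins and neuronal genes. Cells whose proteins misfold or are damaged switch on heat shock chaperones, proteasome subunits and antioxidant enzymes through separate transcription factors, while AP-1 and other immediate early genes respond within a short time to many signals. Very long genes, many of them neuronal, take RNA polymerase the longest to transcribe.

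Recovered reads per library ran from 11065054 to 13681313 with ASO1 and from 9393587 to 12514724 with NCA. None of the 169 spike-in sequences of the table had a read in these 8 libraries. Replicate 1 of each group stood apart from the others of its group: chi-square per degree of freedom was 4.85 to 5.88 for pairs with ASO1 replicate 1 against 1.47 to 2.37 for the other ASO1 pairs, and 2.63 to 3.79 against 1.27 to 1.53 for NCA. Counts of a list that changed by over 1.5 times and by at least 2 genes without replicate 1, with the replicate number as a block, with all libraries rescaled to one total or without any 1 library are given with that value. Over the libraries, 5 ribosomal RNA precursor entries took 0.131% to 0.177% of reads with ASO1 and 0.169% to 0.2% with NCA (two-sided exact permutation test p 0.0571, 0.214 adjusted over 5 measures), and mitochondrially encoded genes took 4.46% to 4.97% and 4.58% to 5.20% (exact p 0.2, adjusted 0.333); both pairs of ranges overlapped.

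Markers of the adrenergic state and of other cells were looked up. HAND2, GATA3, ISL1, DBH, DDC, CHGA and CHGB all passed the minimum level. Tyrosine hydroxylase (TH), which makes the first step of catecholamine synthesis, passed it too, but with few counts. The mean of TH was 24.6 ± 3.62 normalized counts in the ASO1 libraries and 26.1 ± 3.90 in the NCA libraries (SD, n = 4). Of 32 YAP targets and mesenchymal genes, 24 passed the minimum level too, among them FN1, SNAI2 and TWIST1. Passing it therefore does not tell an adrenergic from a mesenchymal state. Of 20 markers of Schwann cells, fibroblasts, endothelium and leukocytes, 13 lay below the minimum level, among them SOX10, PTPRC and CD3E, the last with 0 reads. Their summed normalized count was 981.9 to 1088.1 with ASO1 and 940.3 to 996.7 with NCA, most of it from COL1A1, and 1 of 7 tested members rose and 1 fell. In bulk RNA, fewer cells of a kind and less RNA per cell cannot be told apart, which holds for every result below.

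Of 17345 genes with a mean normalized count of at least 10 over the 8 libraries, 4814 (27.8%) differed between ASO1 and NCA at a limma adjusted p under 0.05, of which 2315 (13.3%) were higher with ASO1 and 2499 (14.4%) lower. These shares are the background for every count below, where rose and fell mean past this threshold. Fold changes are differences of mean log2(normalized count + 1), ASO1 minus NCA, which understates changes of genes with low counts. Most changes were small: the median size among the differing genes was 0.335 on this scale, and 228 (1.31%) passed the threshold with a size of at least 1, 195 of them higher and 33 lower. The 4 ASO1 values did not overlap the 4 NCA values in 27.6% of the tested genes.

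**Figure D1:**
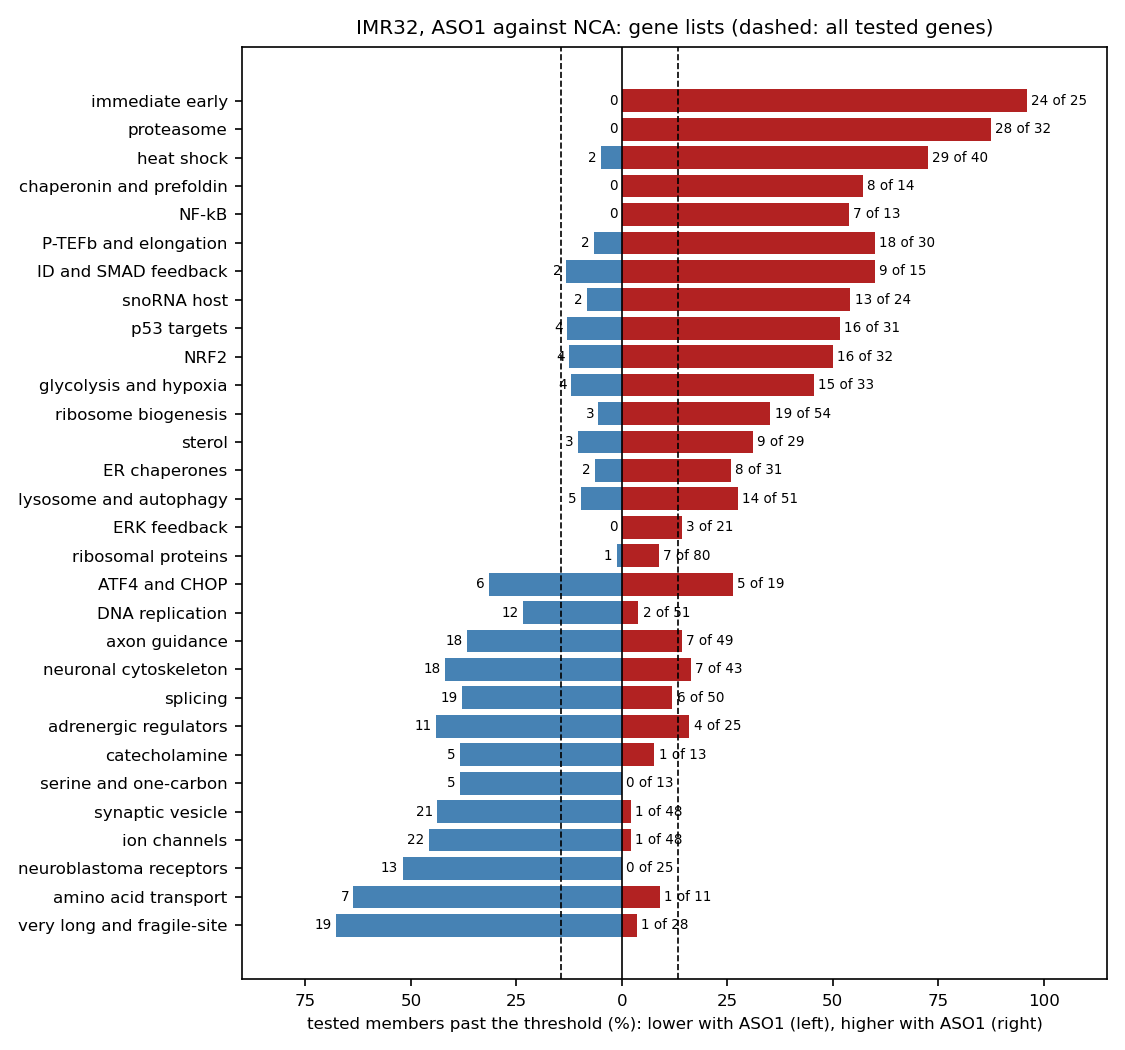
Share of the tested members of the gene lists drawn that rose (right) or fell (left) with ASO1 against NCA, in percent, with the number of genes beside each bar. Dashed lines mark the shares over all 17345 tested genes, 13.3% higher and 14.4% lower, and of the lists drawn the immediate early and proteasome lists stand farthest to the right. The metallothionein and zinc export list, with both of its 2 tested members higher, is among the lists not drawn.

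**Figure D2:**
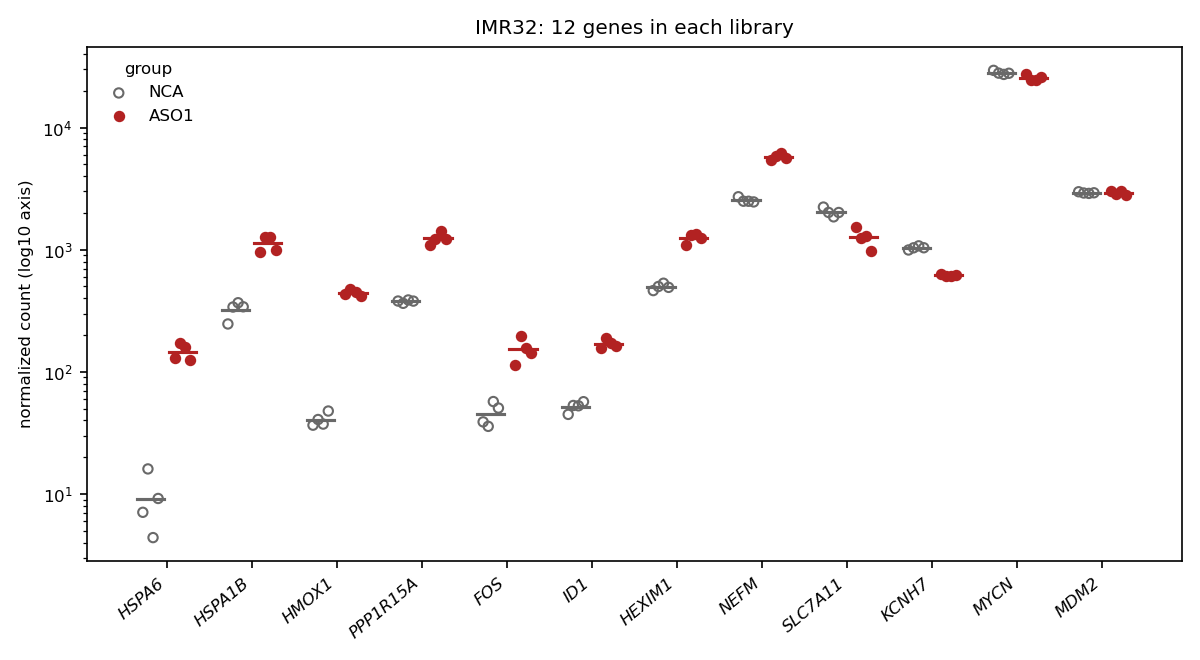
Normalized count of 12 named genes in each of the 8 libraries on a log10 axis, with open circles for NCA, filled circles for ASO1 and a bar at each group's mean. The groups do not overlap for any of these genes except MYCN and MDM2.

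NESPR is not a symbol in the tables used to name genes, so its knockdown is not reported. LINC00682 (ENSG00000245870), a long non-coding RNA named here because earlier results of these data named it, had normalized counts of 2010.4, 1951, 1772 and 1800.4 with ASO1 and 2798, 2557, 2489.8 and 2514 with NCA. Every ASO1 library lay below every NCA library (log2 fold change -0.46, standard error 0.05, limma adjusted p 5.96e-06). It was lower still with ASO2, at 1464 ± 132 (SD, n = 4), and the log2 difference of ASO1 minus ASO2 was 0.37, standard error 0.06, limma adjusted p 0.000196.

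Genes of protein folding rose together. Among heat shock proteins and their cochaperones, 29 of 40 tested members rose and 2 fell, with a median log2 fold change of 0.24 beside -0.003 over all tested genes. The promoters of the chaperone genes with the strongest rise are shown first because they hold the heat shock element, the motif recognised by the heat shock factor HSF1. They are the 250 bases before the start site on the coding strand from RefSeq (GRCh38.p14, HSPA6 at chr1:161524290-161524539, + strand, and HSPA1B at chr6:31827488-31827737, + strand), and capitals mark matches to GAANNTTC or TTCNNGAA. Each motif reads the same on both strands, and matches may overlap.
HSPA6: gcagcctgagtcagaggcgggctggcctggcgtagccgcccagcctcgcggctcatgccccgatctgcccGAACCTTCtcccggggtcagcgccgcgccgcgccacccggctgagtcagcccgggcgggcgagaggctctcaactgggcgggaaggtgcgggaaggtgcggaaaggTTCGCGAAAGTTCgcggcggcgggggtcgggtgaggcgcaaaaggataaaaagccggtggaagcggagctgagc
HSPA1B: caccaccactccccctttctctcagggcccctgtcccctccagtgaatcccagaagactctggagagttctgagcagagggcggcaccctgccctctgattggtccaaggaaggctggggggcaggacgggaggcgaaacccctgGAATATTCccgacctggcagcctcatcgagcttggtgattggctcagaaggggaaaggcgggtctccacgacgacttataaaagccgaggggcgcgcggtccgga
HSPA6 held 3 matches, whose first bases lie 180, 74 and 69 bases before the start, the last pair overlapping, and HSPA1B held 1, at 105 bases before it. Over windows that also took in 50 bases after the start, either form was found in 27.8% of 36 promoters of tested chaperone genes, in 9.8% of 11250 promoters of tested genes and in 13.7% of all 27305 promoters in the table. DNAJB1, HSPH1 and BAG3, which also rose, had no match within this window.

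HSPA6, an inducible HSP70 with almost no basal expression, had normalized counts of 129.6, 172, 160.2 and 124 with ASO1 and 7.08, 16.04, 4.39 and 9.19 with NCA. All 4 ASO1 libraries lay above all 4 NCA libraries, the latter at a few reads each (log2 fold change 3.97, standard error 0.26, limma adjusted p 8.49e-09). The NCA values of HSPA6 averaged below the minimum level, which the gene passed through its ASO1 values. HSPA1B, another inducible HSP70, stood at 955, 1278, 1266 and 1000.04 with ASO1 and 247, 339, 368 and 341 with NCA, again without overlap (log2 fold change 1.80, standard error 0.11, limma adjusted p 5.29e-09). Its near-identical copy HSPA1A was at 19 reads or fewer in every library, so reads of the pair cannot be assigned with certainty. DNAJB1, the HSP40 that passes clients to HSP70, was at 1725, 2084, 2206 and 1712 with ASO1 and 552, 677, 669.9 and 699 with NCA. The ASO1 values were all above the NCA values (log2 fold change 1.57, standard error 0.08, limma adjusted p 7.76e-10). Smaller rises were found for the exchange factors HSPH1 (0.96) and BAG3 (0.84), the small heat shock protein HSPB1 (0.75), constitutive HSPA8 (0.60) and the HSP90 genes HSP90AA1 (0.59) and HSP90AB1 (0.25). FKBP5, a cochaperone induced by glucocorticoids, fell (-0.26), as did TRAP1, the mitochondrial HSP90 (-0.21).

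The other folding and degradation machines followed in the same direction with smaller sizes. Of the cytosolic chaperonin and prefoldin subunits, which fold actin and tubulin, 8 of 14 tested members rose and 0 fell (median 0.23), led by TCP1 (0.41), CCT2 (0.28) and CCT3 (0.27). Of the 20S and 19S proteasome subunits, 28 of 32 tested members rose and 0 fell, with a median of 0.31 and per-library medians of 0.22 to 0.42 in the ASO1 libraries and -0.05 to 0.11 in the NCA libraries, relative to the NCA mean. Sizes were modest. ADRM1, a ubiquitin receptor, rose by 0.70, the core subunit PSMB4 by 0.51, and the lid and base subunits PSMD11 and PSMD2 by 0.48 and 0.47. PSMA1, PSMD7, PSMD13 and PSMC1 did not pass the threshold and were named after their values were seen. Endoplasmic reticulum chaperones moved less: 8 of 31 tested members rose and 2 fell (median 0.08). The numbers risen and fallen were 12 and 4 with the replicate number as a block, 9 and 5 without replicate 1 of both groups and 7 and 4 without ASO1 replicate 1. The risers included DNAJB9 (0.64), HERPUD1 (0.47), HSPA5 (0.35) and CALR (0.35), which assist folding or degradation in that compartment, whereas the stress sensor ATF6 (-0.35) fell and the spliced-factor gene XBP1 (0.04) did not pass. Among members that span 100 kb or more, 0 rose and 2 fell of 3, and below 8 rose and 0 fell of 28. Over all tested genes, 138 rose and 1261 fell of 2976 at 100 kb or more, and 2077 and 1193 of 13690 below.

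Antioxidant and haem genes driven by NRF2 rose in part. In this list 16 of 32 tested members rose and 4 fell (median 0.24). By length, 1 rose and 3 fell of 8 at 100 kb or more, and 15 rose and 1 fell of 24 below. HMOX1, which opens the haem ring, was at 436, 473, 453 and 419 with ASO1 and 36.6, 40.7, 37.3 and 47.8 with NCA. All 4 ASO1 libraries lay above every NCA library (log2 fold change 3.43, standard error 0.10, limma adjusted p 1.75e-13). BLVRB, biliverdin reductase B, rose by 0.98, and FTH1, the heavy subunit of the iron store ferritin, by 0.31. OSGIN1, an oxidative stress response gene (1.52), the glutathione synthesis subunits GCLM (0.84) and GCLC (0.34), MAFG, a partner of NRF2 (0.73), PRDX1 (0.58) and NQO1 (0.47) rose as well. SLC7A11, the cystine importer that is a target of both NRF2 and ATF4, was at 1547, 1251, 1285 and 972 with ASO1 and 2233, 2019, 1857 and 2017 with NCA. It moved the other way without overlap (log2 fold change -0.70, standard error 0.10, limma adjusted p 3.27e-05). The GCLM promoter is shown because it is the only one of the 5 leading antioxidant promoters in the table with an antioxidant response element (TGACNNNGC on either strand, in capitals), found in 15.4% of 13 promoters of list members that rose, in 32.0% of 25 promoters of all tested list members and in 15.2% of the promoters of tested genes, so the share among those that rose was at the background (chr1:93909431-93909680, - strand).
GCLM: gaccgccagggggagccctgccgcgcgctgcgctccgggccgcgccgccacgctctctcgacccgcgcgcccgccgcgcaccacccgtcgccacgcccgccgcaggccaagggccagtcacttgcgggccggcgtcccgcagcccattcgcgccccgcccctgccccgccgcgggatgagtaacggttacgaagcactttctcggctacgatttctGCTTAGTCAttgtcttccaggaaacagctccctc
The match begins 34 bases before the start. HMOX1 is not among the promoters of the table used.

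Lysosome and autophagy genes were mixed. There 14 of 51 tested members rose and 5 fell (median 0.09). Counts changed to 16 and 8 with the replicate number as a block, 15 and 8 without replicate 1 of both groups and 14 and 9 without ASO1 replicate 1. SQSTM1 (p62), the autophagy receptor that also frees NRF2 from KEAP1, was at 1372, 1433, 1468 and 1407 with ASO1 and 612, 596, 622 and 676 with NCA. The groups did not overlap (log2 fold change 1.18, standard error 0.05, limma adjusted p 7.65e-11). The cathepsins CTSZ (0.99) and CTSD (0.52) and the lysosomal transcription factor TFE3 (0.60) rose, while the receptor OPTN (-0.87) and the kinase ULK2 (-0.55) fell. The 10 metallothioneins measured, which report metal load, all lay below the minimum level, while the zinc exporter SLC30A1 (0.47) and the metal sensor MTF1 (0.27) rose.

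The ATF4 and CHOP arm of the integrated stress response was split. Among its transcription factors and effectors 5 of 19 tested members rose and 6 fell (median -0.04, and 0.14 without NCA replicate 1). Higher and lower calls numbered 8 and 7 with the replicate number as a block and 8 and 6 without replicate 1 of both groups. PPP1R15A (GADD34), which restores translation by dephosphorylating eIF2α, was at 1085, 1229.9, 1413 and 1215 with ASO1 and 379.9, 364, 388 and 379 with NCA, with all ASO1 values above all NCA values (log2 fold change 1.70, standard error 0.07, limma adjusted p 2.1e-11). DDIT3 (CHOP) was at 176, 203, 239 and 185 with ASO1 and 111, 88.8, 92.3 and 112 with NCA, likewise without overlap (log2 fold change 0.98, standard error 0.11, limma adjusted p 4.36e-06). ATF3 (0.77), CEBPB (0.59) and ATF4 (0.29) rose too. In contrast PCK2, the mitochondrial PEPCK (-0.53), GPT2, an alanine aminotransferase (-0.38) and the death receptor TNFRSF10B (-0.37) fell, and TRIB3, a pseudokinase induced by CHOP (0.09), did not pass. TGATGNAA, another motif searched for in this list, had no match in the PPP1R15A promoter. It was found in 13.3% of 15 promoters of tested list members and in 1.7% of the promoters of tested genes. The PPP1R15A promoter is shown for its cyclic AMP response element (TGACGTCA, in capitals). That motif was found in 6.67% of the same 15 promoters and in 3.41% of the promoters of tested genes (chr19:48872171-48872420, + strand).
PPP1R15A: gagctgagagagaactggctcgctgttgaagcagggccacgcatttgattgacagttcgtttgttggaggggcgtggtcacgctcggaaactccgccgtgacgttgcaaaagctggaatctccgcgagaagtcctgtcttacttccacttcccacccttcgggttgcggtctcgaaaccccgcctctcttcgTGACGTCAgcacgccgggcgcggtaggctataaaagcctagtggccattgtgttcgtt
The match begins 58 bases before the start and reads the same on both strands.

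Metabolic targets of ATF4 mostly fell or did not pass the threshold. No gene of serine, one-carbon, proline and asparagine synthesis rose and 5 of 13 fell (median -0.16). For this list the pair of counts was 0 and 8 with the replicate number as a block, 0 and 8 without replicate 1 of both groups and 0 and 8 without ASO1 replicate 1. SHMT2, the mitochondrial serine hydroxymethyltransferase, was at 1435, 1223, 1238 and 1169.6 with ASO1 and 2219, 1579, 1722 and 1598 with NCA. The ASO1 values were all below the NCA values (log2 fold change -0.48, standard error 0.09, limma adjusted p 0.000491). The other falls were ALDH1L2 (-0.58), PSAT1 (-0.40), MTHFD1L, which spans 236 kb (-0.38), and PHGDH (-0.32), while ASNS, which makes asparagine (-0.18), did not pass. Of stress-regulated amino acid transporters, 1 of 11 tested members rose and 7 fell (median -0.25). Rises and falls came to 1 and 4 without ASO1 replicate 4. They included the cystine carrier above and SLC1A4 (-0.49), a carrier of neutral amino acids. Of the aminoacyl-tRNA synthetases 3 of 20 tested members rose and 6 fell. They numbered 5 and 10 with the replicate number as a block, 4 and 10 without replicate 1 of both groups, 4 and 10 without ASO1 replicate 1 and 1 and 5 without NCA replicate 4.

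Immediate early genes rose almost throughout. Of 25 tested members 24 rose and 0 fell, with a median of 0.86 and per-library medians of 0.69 to 1.00 in the ASO1 libraries and -0.05 to 0.03 in the NCA libraries. FOS, a subunit of AP-1, was at 113, 197, 157 and 142 with ASO1 and 38.9, 35.8, 57.1 and 50.5 with NCA, with no overlap (log2 fold change 1.72, standard error 0.17, limma adjusted p 8.35e-07). SGK1, a kinase induced by serum and glucocorticoids, was at 198, 280.1, 272 and 219 with ASO1 and 35.4, 51.8, 45.03 and 61.6 with NCA, again apart (log2 fold change 2.31, standard error 0.15, limma adjusted p 8.49e-09). EGR1, a zinc finger factor induced through serum response factor, was at 252, 308, 349.8 and 279.9 with ASO1 and 86.1, 127, 150.5 and 121 with NCA. All ASO1 libraries were above the NCA libraries (log2 fold change 1.30, standard error 0.14, limma adjusted p 1.57e-06). The AP-1 genes FOSB (2.13) and JUN (1.17), the transcription factor KLF4 (1.55) and the mRNA decay factor ZFP36 (1.35) rose, and ZFP36L1, named after its value was seen, was the member that did not pass. FOSL1, EGR2, EGR4 and KLF2 lay below the minimum level.

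Genes that report sustained ERK signalling moved little beside these. Of ERK feedback regulators and ETS targets, 3 of 21 tested members rose and 0 fell. Called members were 5 and 3 with the replicate number as a block and 6 and 1 without replicate 1 of both groups. The risers were the phosphatases DUSP5 (1.43), DUSP1 (0.86) and DUSP16 (0.36), whereas the ERK readout DUSP6 (0.04) did not pass. Among NF-kB genes 7 of 13 tested members rose and 0 fell (median 0.19). RELB, a subunit of the non-canonical pathway, was at 25.6, 26.6, 35.1 and 29.2 with ASO1 and 11.8, 7.40, 7.69 and 8.27 with NCA, without overlap (log2 fold change 1.63, standard error 0.23, limma adjusted p 4.41e-05). Its NCA values averaged below the minimum level, which RELB passed through its ASO1 values. The feedback inhibitor NFKBIA (0.44) and NFKB2 (0.69) rose, while the cytokines and adhesion molecules of the list (CXCL8, IL6, TNF and ICAM1 among them) were below the minimum level. RGS2 and RGS4, which switch off G proteins, rose by 0.99 and 0.92, and of the RGS family 3 of 14 tested members rose and 3 fell. These counts were 3 and 5 with the replicate number as a block.

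The inhibitor of DNA binding genes, which block bHLH factors of differentiation, rose as a family. All 4 members passed: ID1 (1.70), ID4 (1.63), ID3 (1.54) and ID2 (1.28). ID1 was at 157, 188, 173 and 164 with ASO1 and 44.8, 53.04, 52.7 and 56.96 with NCA, and the groups did not overlap (log2 fold change 1.70, standard error 0.11, limma adjusted p 8.49e-09). With SMAD feedback genes added, 9 of 15 tested members rose and 2 fell (median 0.29). HEY1, a bHLH repressor that answers to Notch or BMP signals, was at 73.01, 82.8, 87.2 and 76.9 with ASO1 and 36.6, 24.7, 37.3 and 30.3 with NCA, likewise apart (log2 fold change 1.30, standard error 0.15, limma adjusted p 6.52e-06). The Notch list as a whole did not share its direction: 2 of 17 tested members rose and 5 fell, with NRARP (0.78) up, the coactivator MAML3 (-0.45) and the ligand JAG2 (-0.37) down, and HES1 and HES5 below the minimum level. Wnt genes were mixed (8 of 25 tested members rose and 5 fell), with rises in the receptors FZD8 (1.00), FZD1 (0.81) and FZD7 (0.56) and a fall in WNT5B (-0.40). The numbers risen and fallen were 7 and 2 without ASO1 replicate 2, 6 and 2 without ASO1 replicate 3 and 6 and 3 without NCA replicate 2.

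MYC rose and MYCN did not pass the threshold. MYC was at 37.4, 39.9, 54.03 and 46.8 with ASO1 and 17.7, 7.40, 16.5 and 12.9 with NCA, all ASO1 values above all NCA values (log2 fold change 1.69, standard error 0.24, limma adjusted p 4.94e-05). MYCL rose as well (0.84), whereas MYCN was at 27659, 24577, 24346 and 25797 with ASO1 and 29394, 27893, 27230.4 and 27829 with NCA with overlapping groups (log2 fold change -0.14, standard error 0.05, limma adjusted p 0.0735). MYCN passed with the replicate number as a block (limma adjusted p 6.52e-05), with libraries rescaled to one total (0.0421), without ASO1 replicate 1 (0.00329), without replicate 1 of both groups (3.24e-05) and with edgeR and DESeq2 on recovered reads (0.045 and 0.0365). The MYC antagonist MXD1 fell (-0.72). In the list of the MAX and MXD network with E-box metabolic targets, 4 of 17 tested members rose and 3 fell. This list also holds NBAS, a neighbour of MYCN. At 100 kb or more 0 rose and 2 fell of 2, and below 4 rose and 1 fell of 15.

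p53 target genes rose in part, without the classic feedback gene. In this list 16 of 31 tested members rose and 4 fell (median 0.21). Counts changed to 18 and 2 with libraries rescaled to one total, 15 and 1 without ASO1 replicate 2, 16 and 1 without ASO1 replicate 4, 13 and 2 without NCA replicate 2, 16 and 1 without NCA replicate 3 and 14 and 2 without NCA replicate 4. CDKN1A (p21), the cell cycle inhibitor, was at 852, 899, 955 and 843 with ASO1 and 580.5, 571, 661 and 652 with NCA, without overlap (log2 fold change 0.53, standard error 0.06, limma adjusted p 7.23e-06). PLK2, a kinase that also answers to other stresses, was at 653, 785, 845 and 670.0 with ASO1 and 251, 312, 328 and 331 with NCA, apart as well (log2 fold change 1.27, standard error 0.09, limma adjusted p 2.87e-08). MDM2, which degrades p53, was at 3022, 2879, 3031 and 2780.4 with ASO1 and 2981, 2911, 2889.5 and 2924 with NCA, with overlapping groups (log2 fold change -0.00, standard error 0.04, limma adjusted p 0.999). Further rises were GADD45A (0.82), FDXR (0.76) and PHLDA3 (0.69) and the BH3-only gene BBC3 (PUMA, 0.56), and GDF15 (-0.50) did not pass. In the BCL2 family 6 of 23 tested members rose and 3 fell. Higher and lower calls numbered 3 and 3 without ASO1 replicate 2, 3 and 3 without ASO1 replicate 3 and 3 and 3 without NCA replicate 4. Antiapoptotic BCL2, which spans 197 kb (-0.38), and the neuronal BH3-only gene HRK (-0.42) fell.

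Most genes that control RNA polymerase II elongation rose. Of P-TEFb, 7SK complex and elongation genes, 18 of 30 tested members rose and 2 fell (median 0.20), and the per-library medians were tightly grouped, 0.18 to 0.21 in the ASO1 libraries and -0.01 to 0.01 in the NCA libraries. For this list the pair of counts was 20 and 4 with the replicate number as a block, 19 and 4 without replicate 1 of both groups and 17 and 4 without ASO1 replicate 1. HEXIM1, which holds the kinase P-TEFb inactive and is used as a readout of its release, was at 1082, 1324, 1353 and 1254 with ASO1 and 462, 499.6, 532 and 491 with NCA, without overlap (log2 fold change 1.33, standard error 0.07, limma adjusted p 5.6e-10). HEXIM2 (0.62), BRD2 (0.66), the P-TEFb cyclin CCNT1 (0.26) and POLR2A, the largest polymerase subunit (0.40), rose too. The splicing list went the other way in part: 6 of 50 tested members rose and 19 fell. Rises and falls came to 11 and 21 with the replicate number as a block, 10 and 21 without replicate 1 of both groups and 3 and 18 without NCA replicate 3. Splicing genes that span 100 kb or more rose in 0 and fell in 9 of 11 cases (median -0.26). Shorter ones rose in 6 and fell in 10 of 39 (median 0.03). Over all tested genes, 138 rose and 1261 fell of 2976 at 100 kb or more, and 2077 and 1193 of 13690 below. The kinases CLK1 (0.48) and CLK4 (0.27) rose and CLK2 (-0.60) fell, as did neuronal splicing regulators CELF4 (-0.60), RBFOX1 (-0.52) and CELF5 (-0.37) and the cold-inducible CIRBP (-0.35).

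Growth genes moved unevenly. Of ribosome biogenesis genes 19 of 54 tested members rose and 3 fell (median 0.09), led by RRN3 (0.41), RRP12 (0.40) and WDR74 (0.40). They numbered 25 and 5 with the replicate number as a block, 22 and 6 without replicate 1 of both groups and 19 and 5 without ASO1 replicate 1. Host genes of small nucleolar RNAs, whose spliced RNAs are degraded during translation, rose in 13 of 24 cases and fell in 2 (median 0.25), SNHG5 by 0.78, SNHG12 by 0.45 and ZFAS1 by 0.39. Ribosomal protein genes themselves had a median of 0.06, and the number that passed depended on replicate 1: 7 of 80 tested members rose and 1 fell. Called members were 30 and 3 with the replicate number as a block, 19 and 4 without replicate 1 of both groups, 16 and 2 with libraries rescaled to one total, 6 and 4 without ASO1 replicate 1, 17 and 0 without NCA replicate 1, 4 and 0 without NCA replicate 2, 3 and 1 without NCA replicate 3 and 4 and 1 without NCA replicate 4. DNA replication genes leaned lower, 2 of 51 tested members rose and 12 fell (median -0.07), including POLD3 (-0.36) and POLA1 (-0.33). These counts were 3 and 22 with the replicate number as a block, 1 and 6 without ASO1 replicate 3 and 1 and 6 without NCA replicate 2. Replication genes at 100 kb or more rose in 1 and fell in 4 of 5 cases, and shorter ones in 1 and 8 of 46. Mitosis genes showed no side that held: 2 of 59 tested members rose and 2 fell. The numbers risen and fallen were 11 and 6 with the replicate number as a block, 5 and 15 without replicate 1 of both groups, 5 and 2 with libraries rescaled to one total, 2 and 10 without ASO1 replicate 1, 4 and 1 without ASO1 replicate 3, 3 and 0 without ASO1 replicate 4 and 5 and 2 without NCA replicate 1. Replication-dependent histones differed more between replicate 1 and the others than between ASO1 and NCA, with list medians of 0.37 in ASO1 replicate 1 and 0.29 in NCA replicate 1 relative to the NCA mean.

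Falls followed the length of the gene. Among genes that span over 300 kb, 423 of 673 (62.9%) fell and 13 (1.9%) rose, with a median log2 fold change of -0.34. The median was -0.14 for genes of 100 to 300 kb, -0.01 for 30 to 100 kb, 0.06 for 10 to 30 kb and 0.05 for under 10 kb. Lengths come from GENCODE 29 by gene ID and were known for 96.1% of the tested genes. Relative to the NCA mean, the median of the genes over 300 kb was -0.36 to -0.33 in the ASO1 libraries and -0.04 to 0.01 in the NCA libraries, so every ASO1 library showed it. The medians were -0.35 for protein-coding genes alone, -0.32 with libraries rescaled to one total, and -0.34 with edgeR. Within the ASO1 and ASO2 model, the median of ASO1 minus ASO2 over these genes was -0.09, and 173 of 670 were lower with ASO1 and 29 higher. The median of ASO2 minus NCA over the same genes was -0.26, so their lower level was not particular to ASO1.

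**Figure D3:**
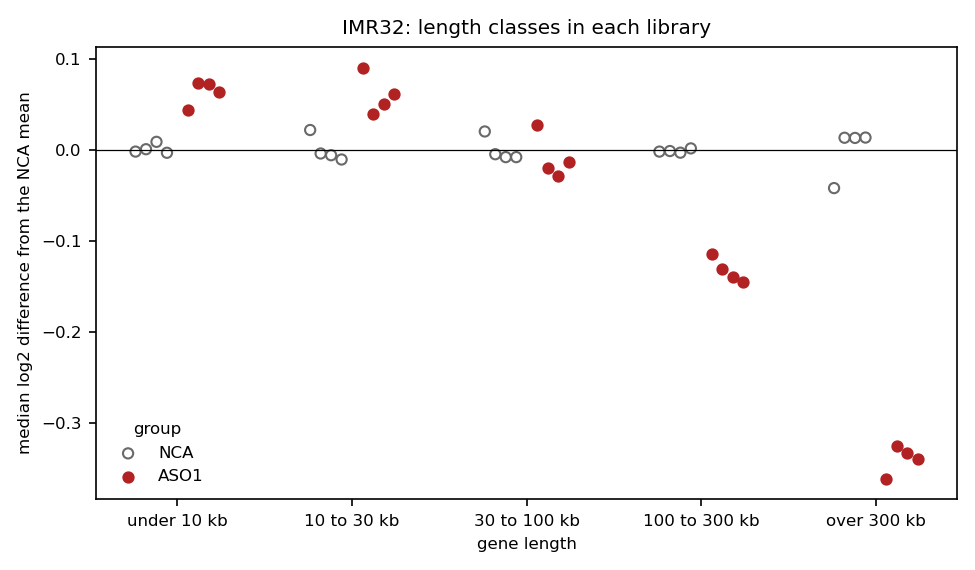
Median log2 difference from the NCA mean, by class of gene length and library (points: ASO1 filled, NCA open). The 4 ASO1 libraries lie between -0.36 and -0.33 for genes over 300 kb, below all NCA libraries.

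The list of very long and fragile-site genes had a median length of 1320 kb. Of its 28 tested members 1 rose and 19 fell (3.6% and 67.9%, median -0.38). These shares were near those of all genes over 300 kb (1.9% and 62.9%). FHIT, a gene that spans 1500 kb, fell by 0.73 on the log2 scale and TENM2, a synaptic adhesion protein, by 0.70. PCDH9, a protocadherin of 928 kb, was the exception and rose by 0.86.

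Ion channel genes, many of them long, fell in large part. In this list 1 of 48 tested members rose and 22 fell (median -0.21). By length, 1 rose and 19 fell of 30 (median -0.35) at 100 kb or more. Below 100 kb, 0 rose and 3 fell of 18 (median -0.09). Of all tested genes at 100 kb or more, 138 rose and 1261 fell of 2976 (median -0.18). Of all those below 100 kb, 2077 rose and 1193 fell of 13690 (median 0.03). These counts are the background for every split by length that follows. KCNH7, a potassium channel of the ERG type that spans 467 kb, was at 633, 606, 605 and 623 with ASO1 and 995, 1036, 1075 and 1037 with NCA. The groups did not overlap (log2 fold change -0.75, standard error 0.05, limma adjusted p 1.17e-08). Other falls were the potassium channels KCNH8 (-0.66), KCNB2 (-0.64) and KCNMA1 (-0.60) and the N-type calcium channel CACNA1B (-0.44). KCNN3, a calcium-activated potassium channel, rose (0.87).

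Synaptic vesicle and release genes fell in 21 of 48 cases and rose in 1 (median -0.20). Counts changed to 4 and 30 with the replicate number as a block and 3 and 26 without replicate 1 of both groups. SYT1, the calcium sensor of release, was at 3809, 3629, 3564 and 3552 with ASO1 and 5221, 5119, 4915 and 5186 with NCA, without overlap (log2 fold change -0.49, standard error 0.04, limma adjusted p 3.65e-07). SV2B (-0.89), CADPS (-0.70) and RIMS2 (-0.50) fell too, while VAMP1 (0.50) rose and the vesicle protein SYP (-0.05) did not pass. By length, 0 rose and 13 fell of 21 (median -0.32) at 100 kb or more, and 1 rose and 8 fell of 27 (median -0.15) below. Axon guidance genes divided: 7 of 49 tested members rose and 18 fell (median -0.15). Higher and lower calls numbered 3 and 17 without ASO1 replicate 3. The receptors UNC5D (-0.76), DCC (-0.54) and ROBO2 (-0.47) and the ligand SLIT1 (-0.57) fell, and the ephrin EFNB2 (0.42) rose. At 100 kb or more, 1 rose and 15 fell of 26 (median -0.26), and below that 6 rose and 3 fell of 23 (median 0.09).

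The neuronal cytoskeleton split by gene group. In the list 7 of 43 tested members rose and 18 fell (median -0.08). Neurofilament genes rose: NEFM, the medium subunit, was at 5433, 5836, 6151 and 5669 with ASO1 and 2714, 2494, 2492 and 2461 with NCA, without overlap (log2 fold change 1.18, standard error 0.05, limma adjusted p 3.45e-11), and NEFH (0.74) and NEFL (0.36) rose too. Several microtubule-associated proteins fell instead, whereas MAP1A rose (0.93). MAP1B, which stabilises growing axons, was at 28631, 21596, 22126 and 23670.0 with ASO1 and 41635, 36421, 37538 and 36038 with NCA, also apart (log2 fold change -0.67, standard error 0.08, limma adjusted p 5.23e-06), and MAP6 (-0.78), MAPT (-0.64), STMN2 (-0.58) and DCX (-0.41) fell. Of the members at 100 kb or more, 0 rose and 14 fell of 19 (median -0.22), and below 100 kb 7 rose and 4 fell of 24 (median 0.06), so that short members moved both ways.

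**Figure D4:**
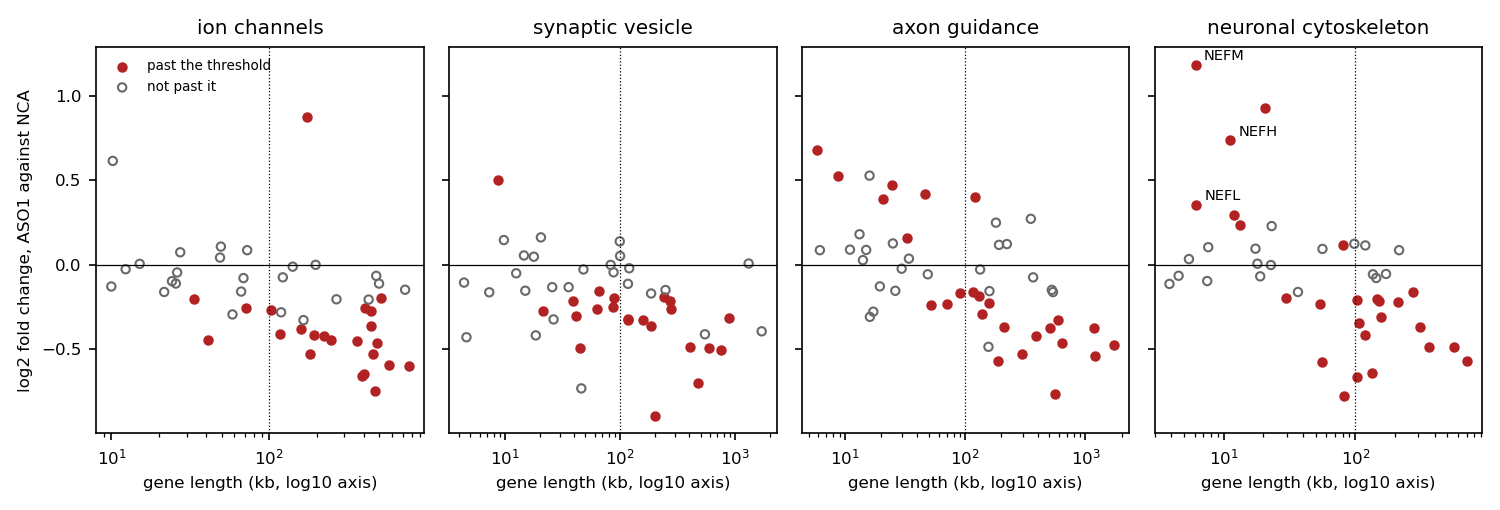
Log2 fold change of ASO1 against NCA against gene length in kb (log10 axis) for ion channel, synaptic, axon guidance and cytoskeleton genes; filled points passed the threshold, open points did not, and the dotted line marks 100 kb. Most filled points at 100 kb or more lie below 0, while the neurofilament genes lie above 0 at short length.

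Receptor kinases and neurotrophin receptors of neuroblastoma fell in 13 of 25 cases, and none rose (median -0.31). For this list the pair of counts was 4 and 15 with the replicate number as a block, 4 and 14 without replicate 1 of both groups and 2 and 14 without NCA replicate 1. ALK, the kinase most often mutated in neuroblastoma, was at 776, 886, 854 and 889.8 with ASO1 and 1149, 1205, 1329 and 1278 with NCA, without overlap (log2 fold change -0.54, standard error 0.06, limma adjusted p 2.78e-06). NTRK3, the receptor of neurotrophin-3, was at 388, 384, 389.6 and 413 with ASO1 and 579, 613, 672 and 713 with NCA, likewise apart (log2 fold change -0.71, standard error 0.07, limma adjusted p 6.71e-07). ERBB3 (-1.40), DDR2 (-0.73) and ROR1 (-0.67) fell too, ERBB3 from a low level, while RET, the GDNF family receptor (0.08), did not pass. At 100 kb or more, 0 rose and 10 fell of 12 (median -0.39), and below 0 rose and 3 fell of 13 (median -0.07). Of clustered protocadherins, which share exons and so share reads, none rose and 8 of 36 fell (median -0.40). Rises and falls came to 0 and 14 with the replicate number as a block, 0 and 5 without ASO1 replicate 1, 0 and 5 without NCA replicate 2, 0 and 4 without NCA replicate 3 and 0 and 3 without NCA replicate 4. Collagens, laminins and integrins leaned lower (3 of 52 tested members rose and 15 fell), with COL6A3 (-1.19) and ITGA6 (-0.58) among the falls. They numbered 7 and 20 with the replicate number as a block, 7 and 19 without replicate 1 of both groups and 6 and 16 without ASO1 replicate 1. Members of this list at 100 kb or more rose in 0 and fell in 10 of 26 cases (median -0.24). Shorter members rose in 3 and fell in 5 of 26 (median -0.04). Surface antigens used as neuroblastoma targets were mixed (3 of 17 tested members rose and 6 fell), with FUT1, a fucosyltransferase (-1.19), and NCAM1 (-0.44) lower, DLK1 (0.55) and B4GALNT1, the GM2/GD2 synthase (0.26), higher.

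The adrenergic regulators did not move as a block. In this list 4 of 25 tested members rose and 11 fell (median -0.12). HAND2, a core factor, did not pass (-0.07; limma adjusted p 0.289, and 0.0276 without replicate 1 of both groups). PHOX2A was at 1780.4, 1552, 1589.5 and 1738 with ASO1 and 2335, 2182, 2099 and 2211 with NCA, without overlap (log2 fold change -0.41, standard error 0.05, limma adjusted p 2.14e-05). GATA3 (-0.30), EBF1 (-0.45) and DACH1 (-0.41) fell, while INSM1 (0.74), a zinc finger factor of neuroendocrine cells, and GATA2 (0.52) rose. Of the members at 100 kb or more, 0 rose and 7 fell of 9 (median -0.38), and below 4 rose and 4 fell of 16 (median -0.05).

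Of catecholamine genes 1 of 13 tested members rose and 5 fell (median -0.10). DBH, which turns dopamine into noradrenaline, was at 4637, 3983, 3969.6 and 4135 with ASO1 and 5143, 4964, 4777 and 4833 with NCA, without overlap (log2 fold change -0.24, standard error 0.05, limma adjusted p 0.00223). DDC (-0.45), the vesicle carrier SLC18A2 (-0.56) and the noradrenaline carrier SLC6A2 (-0.39) fell, and SPR, which makes the hydroxylase cofactor, rose (0.79). Granins went their own ways: CHGB was at 3518, 3501, 3484 and 3595 with ASO1 and 2279, 2099.5, 2181 and 2118 with NCA, without overlap (log2 fold change 0.70, standard error 0.04, limma adjusted p 6.33e-09), whereas SCG3 fell (-0.38) and CHGA (0.04) did not pass. In the secretory list 2 of 15 tested members rose and 4 fell. Among YAP targets and mesenchymal genes 5 of 24 tested members rose and 4 fell, with SNAI2 (0.98) higher, ZEB1 (-0.53) and TWIST1 (-0.42) lower, and FN1 (0.09) not past the threshold.

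Sterol genes rose modestly. In this list 9 of 29 tested members rose and 3 fell (median 0.12). Called members were 14 and 5 with the replicate number as a block, 10 and 5 without replicate 1 of both groups, 11 and 1 without ASO1 replicate 3, 9 and 1 without NCA replicate 2, 8 and 1 without NCA replicate 3 and 8 and 1 without NCA replicate 4. HMGCS1, the entry enzyme of the mevalonate pathway, was at 4994, 4432, 4624 and 4029 with ASO1 and 3531, 3477, 3412 and 3297 with NCA, without overlap (log2 fold change 0.39, standard error 0.06, limma adjusted p 5.12e-05), and INSIG1, which holds back sterol synthesis (0.30), rose with it. Of glycolysis and hypoxia-inducible genes 15 of 33 tested members rose and 4 fell (median 0.18), with ANKRD37 (0.94), ADM (0.88), SLC2A3 (0.71) and NDRG1 (0.64) up and HK2 (-0.36) and ENO2 (-0.42) down. SAT1, which acetylates polyamines for export, rose by 1.30, and ARG2 fell (-0.63). Imprinted genes rose in 9 of 22 cases and fell in 3 (median 0.17), with H19 (0.67) and PEG10 (0.44) up and PLAGL1 (-0.64) down. These counts were 11 and 5 with the replicate number as a block, 10 and 6 without replicate 1 of both groups and 10 and 5 without NCA replicate 1.

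Genes that sense foreign nucleic acid did not rise as a group. Of 50 sensing and interferon-stimulated genes, 31 lay below the minimum level, among them IFIT1, MX1, ISG15 and IFNB1, the last with 0 reads. Of the 19 tested, 2 rose, the factor IRF1 (1.07) and IFI35 (0.97), the latter not without ASO1 replicate 3 or 4 or NCA replicate 3 (limma adjusted p 0.0541, 0.0539 and 0.0607), nor with DESeq2 on recovered reads (adjusted p 0.058) or with no filter on low values (limma adjusted p 0.0532), and 3 fell, led by USP18 (-0.42). The numbers risen and fallen were 4 and 4 with the replicate number as a block and 2 and 5 without replicate 1 of both groups. Of nuclear-encoded respiratory chain genes 8 of 78 tested members rose and 1 fell (median 0.04). Counts changed to 15 and 6 with the replicate number as a block, 12 and 6 without replicate 1 of both groups, 8 and 4 without ASO1 replicate 1, 5 and 0 without ASO1 replicate 2, 2 and 1 without ASO1 replicate 4, 3 and 0 without NCA replicate 2, 4 and 1 without NCA replicate 3 and 4 and 0 without NCA replicate 4. RNASEH1, the enzyme that cuts RNA bound to DNA (0.08), did not pass. Numbered zinc finger genes rose in 76 of 455 cases and fell in 49, that is 16.7% and 10.8% beside 13.3% and 14.4% of all tested genes.

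ASO1 was also set directly against ASO2. Over 17309 genes, 3795 (21.9%) passed, 1588 (9.17%) with ASO1 higher and 2207 (12.8%) with ASO1 lower. The larger side depended on scaling, since 2352 were higher and 1581 lower after every library was rescaled to one total. p53 targets were mostly lower with ASO1: of 31, 1 were higher and 22 lower with ASO1 than with ASO2 (2 and 19 after rescaling). MDM2 averaged 2928 ± 121 (SD, n = 4) with ASO1 and 5493 ± 197 with ASO2, a log2 difference of -0.91, standard error 0.04, limma adjusted p 1.99e-11, and CDKN1A 887 ± 51.5 and 1284 ± 173, a difference of -0.52, standard error 0.08, limma adjusted p 7.97e-05. HMOX1 was the other way, 446 ± 23.1 against 53.5 ± 10.995, a difference of 3.06, standard error 0.13, limma adjusted p 9.77e-12.

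Among the 40 heat shock genes 5 were higher and 6 lower with ASO1 (10 and 4 after rescaling). The log2 difference of ASO1 minus ASO2 was 1.66, standard error 0.24, limma adjusted p 5.84e-05 for HSPA6, and 0.53, standard error 0.12, limma adjusted p 0.00271 for HSPA1B. Of the 32 proteasome subunits 7 were higher and 1 lower (17 and 0 after rescaling), and of the 29 sterol genes 15 were higher and 0 lower (19 and 0). HMGCS1 averaged 4519 ± 402 with ASO1 and 2984 ± 172 with ASO2 (difference 0.60, standard error 0.06, limma adjusted p 3.29e-07). Of the 25 immediate early genes 7 were higher and 4 lower with ASO1 (9 and 4 after rescaling), and of the 43 cytoskeleton genes 6 were higher and 17 lower (6 and 14). Among ribosome and splicing genes, those that passed were mostly lower with ASO1: of 80 cytosolic ribosomal proteins 0 were higher and 30 lower (1 and 23 after rescaling), of 54 ribosome biogenesis genes 1 were higher and 19 lower (4 and 13), and of 50 splicing genes 4 were higher and 17 lower (5 and 16). Of 33 glycolysis and hypoxia-inducible genes 2 were higher and 12 lower (3 and 9), of 49 axon guidance genes 5 were higher and 13 lower (6 and 9), and of 32 NRF2 genes 10 were higher and 7 lower (13 and 6). ASO1 and ASO2 were each set against the same NCA libraries, so changes against NCA are not independent between them.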

How the data were processed

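The deposited table holds normalized counts: per the submitters' processing notes reads passed FastQC 0.11.8, cutadapt 1.18, STAR 2.6.0, HTSeq 0.6.1 and DESeq2 1.42.0, with the builds hg19 and GRCh37 named without their roles. The authors' deposited signal, a count divided by 1 size factor per library, gave back whole reads for 100% of values within 0.01 reads. Whether counting used strand is not given in the sources used here, so overlapping antisense genes and near-identical copies may share reads. Of 62884 entries, 62710 with an Ensembl ID entered library totals, and 174 others, 169 of them spike-ins, did not.

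A gene was tested if its mean over the 8 libraries reached 10, on log2(value + 1) with limma 3.58.1 (R 4.3.3; moderated test with a trend) and Benjamini-Hochberg adjustment over 17345 genes, past the threshold at adjusted p under 0.05. edgeR 4.0.16 and DESeq2 1.42.0 on recovered reads, other pseudocounts, filters, scalings and each library left out were alternatives. Library shares had two-sided exact permutation tests, which cannot go below p 0.0286 for 4 against 4. ASO1 minus ASO2 came from 1 model of all 12 IMR32 libraries. The code was tested on simulated data. Symbols came from a name table by gene ID (99.9% matched).

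The members and lists were chosen with earlier results of these data known, so lists carry counts and medians but no p. Named genes were a list's key members, its up to 5 largest called changes in each direction, its 2 most abundant members, and the 15 largest overall each way whose groups did not overlap; genes that lost the call without 1 library were mostly dropped. Some results are not reported here. The labels do not say what replicate numbers mark. Deviations from the group means of same-numbered ASO1 and NCA libraries correlated at 0.56, 0.112, 0.246 and 0.118 over 12434 genes with a mean of at least 50, and at 0.315, 0.0611, 0.115 and 0.0572 over all tested genes. Some libraries with different numbers correlated more than their own pair over the 12434 genes: ASO1 replicate 2 with NCA replicates 3 (0.204) and 4 (0.171), and NCA replicate 4 with ASO1 replicates 2 and 3 (0.195). Each same-numbered pair exceeded 0.1 over those genes, but the main models did not pair libraries by number. The replicate number as a block was an alternative setting, and blocked values are given where they move a count by over 1.5 times.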

Additional observations from a re-analysis of the deposited data

Results flagged for a closer look

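In groups of 4, the highest or lowest library's gap to its nearest neighbour, divided by the group's range, exceeded Dixon's 95% critical value in 31 of 424 groups scanned, which chance gives in about 1 group in 20. Of these, 13 fell on NCA replicate 1 and 9 on ASO1 replicate 1. Values are normalized counts unless a list is named, with the range of the other 3 libraries after each. NCA replicate 1 was the highest of its group, at 1625 for FKBP5 against 1435 to 1446, 21065 for HSP90AB1 against 18361 to 18487, 2714 for NEFM against 2461 to 2494, 2953 for PSAT1 against 2422 to 2498 and 1807 for PSMD11 against 1606 to 1610.5. NCA replicate 1 was the highest of its group, also at 66.1 for RET against 51.8 to 52.7, 701 for SLC1A4 against 577 to 596, 3168 for TCP1 against 2806 to 2829, 1325 for XBP1 against 1126 to 1157 and 0.11 for the median log2 difference of the proteasome list against -0.05 to -0.03. NCA replicate 1 was the lowest of its group, at 2496 for KCNB2 against 2625 to 2648, 112 for NDRG1 against 131 to 133 and 11.8 for SNAI2 against 21.97 to 22.97. ASO1 replicate 1 was the highest of its group, at 8064 for CALR against 7183 to 7332, 9681 for CCT3 against 8178 to 8421, 1082 for ENO2 against 968 to 980.4, 2829.9 for HK2 against 2185 to 2283 and 25595 for HSP90AB1 against 21599.7 to 22090.2. ASO1 replicate 1 was the highest of its group, also at 1208 for NEFL against 1065 to 1089 and 4325 for TCP1 against 3643 to 3746. ASO1 replicate 1 was the lowest of its group, at 2302 for CACNA1B against 2693 to 2765 and 169.7 for FDXR against 246 to 258. NCA replicate 3 was the highest of its group, at 235 for DUSP16 against 221 to 223, 2089 for HSPH1 against 1940.3 to 1961 and 786 for RRP12 against 739 to 746. NCA replicate 3 was the lowest of its group, at 469 for KCNMA1 against 491 to 494. ASO1 replicate 4 was the highest of its group, at 3149 for CHGA against 2996 to 3009 and 69.3 for RET against 54.98 to 56.2. ASO1 replicate 2 was the lowest of its group, at 80.8 for DCC against 97.6 to 99.4. NCA replicate 2 was the highest of its group, at 85.1 for BBC3 against 67.1 to 69.2. NCA replicate 4 was the highest of its group, at 279 for ROBO2 against 236 to 243. Why replicate 1 of each group stood apart was not tested.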

How the results depend on the processing

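The count of 4814 genes past the threshold stayed within 1.5 times under the other settings, from 3844 with limma without a trend to 6764 with the replicate number as a block, except where a log2 fold change of at least 1 was also asked for, which left 228 genes, 195 higher and 33 lower. Leaving out each library gave 3847, without NCA replicate 2, to 5161, without ASO1 replicate 1. The setting without replicate 1 of both groups, and those for ASO1 against ASO2, were chosen after seeing the data. On recovered reads edgeR passed 4937 genes and DESeq2 4032. Higher genes outnumbered lower ones with libraries rescaled to one total, 2760 against 2279, or by TMM, 2630 against 2236, in contrast to 2315 against 2499; rescaling moved the median of all genes by 0.02. The direct contrast of ASO1 with ASO2 ran from 2727, without ASO1 replicate 3, to 5677 genes with the replicate number as a block. Among the 189 named genes past the threshold none changed direction. Without a trend in limma 4 lost the call, ADM, ATF4, FKBP5 and HRK (adjusted p 0.0516, 0.0912, 0.0545 and 0.0607). Their calls are not a measure of stability, because most genes that lost the call without 1 library were left unnamed after that was seen: of 454 called genes that the naming rule allows, 84 lost it without some library. The replicate block removed no call of a named gene and added only that of MYCN. Of the 14 named genes not past the threshold, leaving out 1 library gave DUSP6 a log2 fold change of -0.013, without ASO1 replicate 4, to 0.11, and TH -0.17 to 0.0090, the last without ASO1 replicate 1. MDM2 turned from -0.00 to 0.021 with libraries rescaled to one total, 0.020 by TMM, 0.0040 with edgeR and 0.0039 with DESeq2; leaving out 1 library gave -0.017 to 0.0245, above 0 without ASO1 replicate 2, ASO1 replicate 4 or NCA replicate 1. No library-level share passed the threshold; 3 libraries against 4 cannot reach a p below 0.0571. With 9393587 to 13681313 reads per library, genes below a mean of 10 were not tested, and in simulated data 66.3% of 98 genes changed by 0.5 on the log2 scale and 90.8% of 98 changed by 1 were found. The simulation left 16970 of 17166 genes unchanged and drew libraries without the difference of replicate 1. In these data far more genes differed, so those shares do not give the sensitivity of this comparison.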

Other observations

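For 2 families taken by gene symbol more members fell than rose, beside 13.3% higher and 14.4% lower of all tested genes. Their members can also belong to lists above, as SLC7A11 and SLC1A4 do, so not all of these falls are separate. Of solute carriers 17 of 223 tested members rose and 44 fell (7.6% and 19.7%). Higher and lower calls numbered 24 and 67 with the replicate number as a block. Solute carriers at 100 kb or more rose in 0 and fell in 15 of 39 cases (median -0.23). Shorter ones rose in 17 and fell in 29 of 184 (median 0.01). Over all tested genes, 138 rose and 1261 fell of 2976 at 100 kb or more, and 2077 and 1193 of 13690 below. Of kinesins, the microtubule motors, 2 of 40 tested members rose and 9 fell (5.0% and 22.5%, median -0.04). For this list the pair of counts was 4 and 10 with the replicate number as a block and 4 and 11 without replicate 1 of both groups. Kinesins at 100 kb or more rose in 0 and fell in 6 of 13 cases (median -0.06). Shorter kinesins rose in 2 and fell in 3 of 27 (median -0.04).

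Several large changes were in genes of no list. SPP1, which encodes the secreted protein osteopontin, was at 23.7, 30.7, 30.3 and 33.4 with ASO1 and 5.90, 1.23, 2.20 and 3.67 with NCA. IL15, a cytokine of lymphocytes, was at 11.9, 16.4, 24.6 and 25.1 with ASO1 and 3.54, 1.23, 4.39 and 1.84 with NCA. Neither gene's groups overlapped (log2 fold change 2.96, standard error 0.33, limma adjusted p 3.84e-06 for SPP1, and log2 fold change 2.48, standard error 0.36, limma adjusted p 6.17e-05 for IL15). Every NCA value of both genes lay below the minimum level, so both were tested only because of their ASO1 values. Their fold changes start from very few NCA reads. On the low side, the inositol phosphate binding protein PLCL1 was at 53.8, 43.96, 44.5 and 54.3 with ASO1 and 125, 123.4, 112 and 119 with NCA, also without overlap (log2 fold change -1.27, standard error 0.12, limma adjusted p 5.26e-07). A smaller change was seen in a member of the MAX network list. NBAS, a gene of 394 kb next to MYCN that can be amplified with it, was at 54514, 52453, 51007 and 52487 with ASO1 and 71827, 73139.9, 72309.9 and 73367 with NCA. Every ASO1 library lay below every NCA library (log2 fold change -0.47, standard error 0.06, limma adjusted p 6.92e-06). Genes over 300 kb had a median of -0.34 and a lower quartile of -0.47.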
